A study of Eucalyptus globulus and Eucalyptus grandis with 36 samples.

Results

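Heat shock factor A2 (HSFA2) is a plant transcription factor of the heat stress response, and 3 of its gene copies in eucalypt stems are described here: Eucgr.C03452, Eucgr.C03449 and Eucgr.C03431. They are 3 of the 14 genes that the deposited tables describe as heat shock transcription factor A2, among 26 genes described as heat shock factors and 11827 genes that stand in at least 1 table. The 3 were selected on the deposited group values, which are given below, so every value of theirs is a description without a test. Eucgr.C03452 and Eucgr.C03449 carry 4 gene ontology terms each in the files, which name transcription factor activity, DNA binding, regulation of transcription and the nucleus, and Eucgr.C03431 carries none.

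Heat shock factors are proteins that assemble into trimers and bind short repeated elements in the promoters of chaperone genes. Plants have classes A, B and C, of which class A factors activate transcription and many class B factors lack the activation domain. In Arabidopsis and tomato, HSFA2 is hardly made at normal temperature, is induced by heat through the HSFA1 factors, and then keeps heat protection going, with small heat shock proteins, HSP101, ascorbate peroxidase 2 and galactinol synthases among the genes it activates in Arabidopsis.

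Stem RNA of seedlings of 2 species, Eucalyptus globulus and Eucalyptus grandis, was sequenced in 36 samples that form 12 groups of 3. Each species was kept at 10, 20 or 30 °C, each in ambient CO2 (390 ppm) or elevated CO2 (700 ppm), and plants at 20 °C in ambient CO2 served as the control of their species. All plants were 6-month-old seedlings from clonal seed, treated in growth chambers for 35 days under 10 h of daily light, so the values describe weeks of warmth or cold and not a heat shock. The protocols give the chambers as 10 to 12, 22 to 24 and 33 to 35 °C, and the design text gives the ambient CO2 as 400 ppm and 35 days as the age of the plants, where the protocols give it as the time in the chambers. Chamber and treatment cannot be told apart, and whether each sample of a group came from a plant of its own is not in the labels.

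The 8 deposited tables hold only genes that the authors selected, each with 1 normalised log2 value per group. In 6 tables a gene had to pass a moderated test between 2 groups, and in 2 tables a one-way test over the 3 temperatures, both at a corrected p of 0.05 and with at least a 2-fold difference. "Higher" and "lower" below mean that the authors selected the gene and that the pair of groups differed at least 2-fold, which is 1 on the log2 scale. A gene missing from a table was not selected there and has no value. No value per sample and no depth is in the tables, so no error can be given, and levels of different genes are not ranked because the scale is not stated to be per length. Of 8 xylem marker genes in the tables (laccase 17 and the fasciclin-like proteins FLA11 and FLA12), all 8 had a value in the E. globulus control, from 5.03 to 13.27, and none was at 0. No gene description matched the names searched for the xylem cellulose synthases CESA4, CESA7 and CESA8, which may be described otherwise.

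Eucgr.C03452 had a value in the 6 groups of E. globulus and in no group of E. grandis. In ambient CO2 its log2 value was 6.80 at 10 °C, 5.96 at 20 °C and 11.00 at 30 °C. In elevated CO2 it was 7.42 at 10 °C, 7.85 at 20 °C and 10.22 at 30 °C. The 30 °C groups were the highest at both CO2 concentrations, and the control was the lowest of the 6 groups.

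Eucgr.C03449 had a value in 5 groups of E. globulus and in the E. grandis control. In ambient CO2 its log2 value in E. globulus was 6.24 at 10 °C, 7.85 at 20 °C and 8.77 at 30 °C. In elevated CO2 it was 6.44 at 10 °C and 6.04 at 20 °C, with no value at 30 °C, and in the E. grandis control it was 9.53. Unlike Eucgr.C03452, this gene had its lowest ambient value in the cold, and its control was above the 20 °C group in elevated CO2.

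Eucgr.C03431 had a value in 2 groups only, 2.30 in E. globulus at 20 °C in elevated CO2 and 7.14 in the E. grandis control. It was selected in 1 table and has no value in the E. globulus control or at 10 or 30 °C. E. grandis had values of these 3 genes in its control alone. E. grandis at 20 °C in elevated CO2 has no value for any gene, so 11 of the 12 groups have values in the tables.

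**Figure D1:**
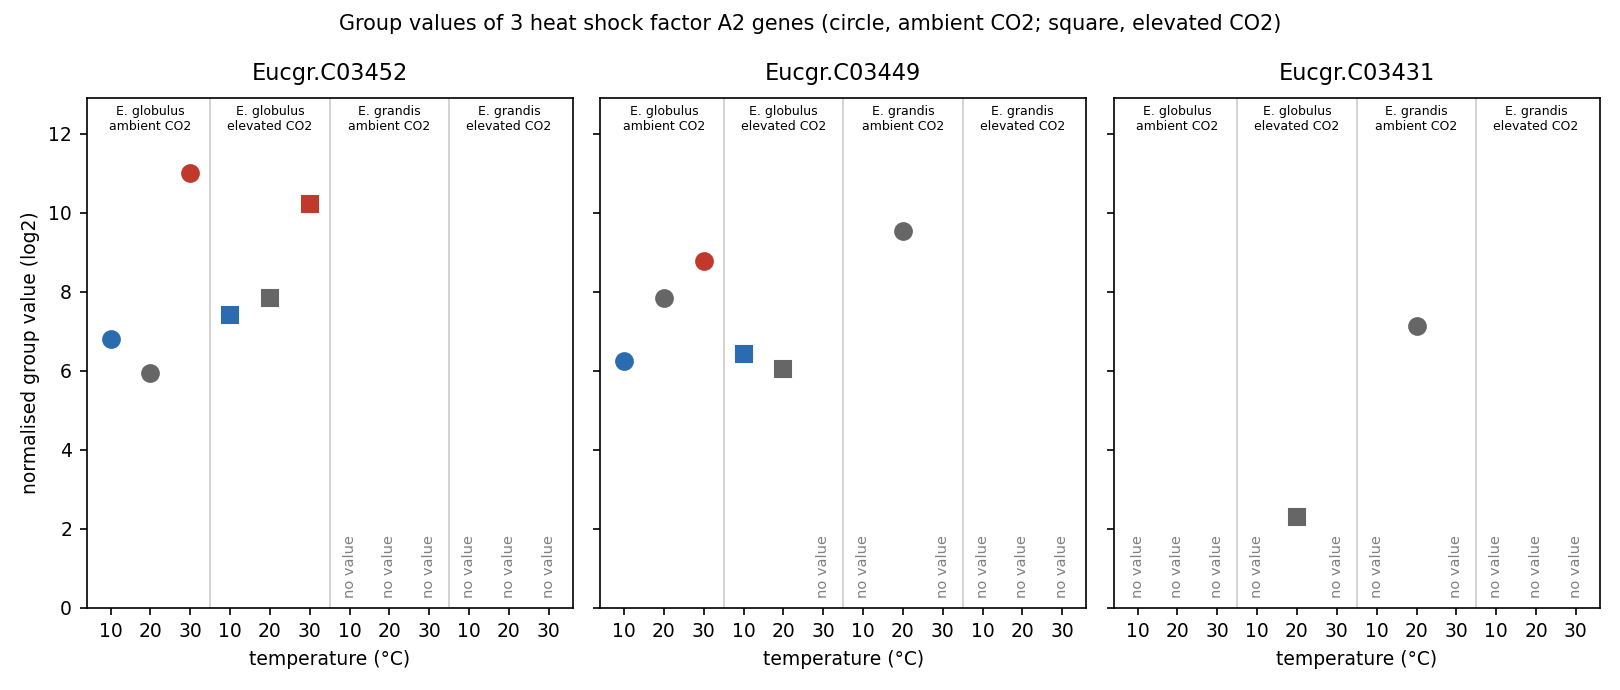
Authors' normalised log2 value (y axis) of Eucgr.C03452, Eucgr.C03449 and Eucgr.C03431 in each group (x axis), 1 point per group and no error bars because the tables hold no value per sample. Eucgr.C03452 reached 11.00 and 10.22 in the 30 °C groups of E. globulus, while most groups of E. grandis have no point.

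The first question of the design is what temperature alone did. At 30 °C against 20 °C, Eucgr.C03452 was 5.05 higher on the log2 scale, a 33.1-fold difference in the authors' deposited table, which placed it 20th of the 2681 genes that were higher. Eucgr.C03449 was 0.92 higher, a 1.89-fold difference in the authors' deposited table that stays under 2-fold, although the gene passed the test over the 3 temperatures. Thus 1 of the 3 genes was higher at 30 °C and none was lower, where 22.7% of all 11827 genes were higher and 14.8% lower. The number of genes the authors tested is not given, so these percentages are shares of the genes in any table. The median log2 difference of the 7453 genes in that table was 0.35.

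At 10 °C the copies went apart. Eucgr.C03452 was 0.84 above the control on the log2 scale, a 1.79-fold difference in the authors' deposited table and again under 2-fold. Eucgr.C03449 was lower by 3.06-fold in the authors' deposited table (log2 difference -1.61), so 1 of the 3 genes was lower and none was higher, where 14.4% of all genes were lower and 17.1% higher. Between 30 and 10 °C both listed copies were higher at 30 °C, where 23.9% of all genes were higher and 18.4% lower. The log2 difference was 4.21 for Eucgr.C03452 (18.5-fold in the authors' deposited table) and 2.53 for Eucgr.C03449 (5.78-fold). Because the control is shared, the 10 °C and 30 °C differences of a gene are not independent of each other.

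Green tissue markers moved with temperature in the same samples. Of 16 genes for light-harvesting proteins and the rubisco small chain, 15 stood in the table of 3 temperatures, of which 9 were higher and 0 lower at 30 °C and 7 were lower at 10 °C. Their summed level on the log2 scale was 15.3 at 10 °C, 16.3 at 20 °C and 17.5 at 30 °C, with 1 of the 15 at 0 at 10 °C. Of 22 phloem markers, 10 were listed, with 2 higher and 4 lower at 30 °C, and of 16 cork and epidermis markers 9 were listed, with 2 higher and 2 lower. The summed level was 8.90, 8.96 and 8.41 for phloem and 11.7, 12.0 and 13.3 for cork and epidermis at 10, 20 and 30 °C, with no phloem marker at 0 and 1 cork and epidermis marker at 0 at 20 °C. Such a sum is set mostly by its highest genes. At 30 °C the highest of the 9 cork and epidermis markers was at 12.88, while their median was 6.96. For xylem, 6 markers were listed and their sum was 12.97, 13.98 and 13.23, with none at 0. The part of tissue makeup in the HSFA2 values was not tested, and in bulk RNA fewer cells of a type and less RNA per cell cannot be told apart.

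The second question is what elevated CO2 did at 20 °C. Both listed copies changed at the 2-fold minimum and in opposite directions, and neither did at a 4-fold minimum. Eucgr.C03452 rose by 1.89 on the log2 scale, 3.71-fold in the authors' deposited table, which placed it 113th of 391 genes that rose, and its difference was 0.69, under 2-fold, once the table median was subtracted. Eucgr.C03449 fell by 1.81, 3.51-fold in the authors' deposited table, 86th from the lowest of 204 genes that fell. So 1 of the 3 genes rose and 1 fell, where 3.31% of all genes rose and 1.72% fell. None of the 12 heat shock factors of other classes was selected in this comparison, in which 595 of all 11827 genes were listed. No small heat shock protein, HSP70, HSP90 or HSP101 gene was listed either, while 1 of 33 DnaJ genes and 1 of 19 galactinol synthases fell. With so few genes listed, the absence of a short list is not read as a result.

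Temperature and CO2 were also combined. At 10 °C in elevated CO2 against the control, Eucgr.C03452 rose 2.77-fold (log2 difference 1.47) and Eucgr.C03449 fell 2.67-fold (log2 difference -1.42) in the authors' deposited table, so 1 of the 3 rose and 1 fell, where 15.8% of all genes rose and 12.7% fell. Neither passed a 4-fold minimum, and Eucgr.C03452 stood at 0.35 once the table median was subtracted. At 30 °C in elevated CO2, Eucgr.C03452 rose 19.2-fold in the authors' deposited table (log2 difference 4.26), 1 of the 3 genes, where 29.9% of all genes rose and 16.2% fell. Eucgr.C03449 and Eucgr.C03431 were not selected there. These comparisons and the one of CO2 at 20 °C share the same control samples.

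Differences between groups of separate tables were not tested by the authors and are given as values. Elevated against ambient CO2 gave Eucgr.C03452 a log2 difference of 0.63 at 10 °C, 1.89 at 20 °C and -0.79 at 30 °C, beside medians of 0.05, 0.24 and 0.07 over the 2555, 1717 and 3486 genes with both values. The copy was thus above its ambient value at 10 and 20 °C and below it at 30 °C. Within elevated CO2, 30 °C was 2.37 above 20 °C on the log2 scale, against 5.05 in ambient CO2, because the 20 °C value was higher and the 30 °C value lower. For Eucgr.C03449 the CO2 difference was 0.20 at 10 °C and -1.81 at 20 °C. Within elevated CO2 its 10 °C value was 0.39 above that at 20 °C, while in ambient CO2 it was 1.61 below.

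The third question concerns the species. A deposited table named for E. grandis and CO2 pairs, by its column headers, the E. grandis control with E. globulus at 20 °C in elevated CO2, so species and CO2 cannot be told apart in it. In that table Eucgr.C03449 was lower in E. globulus by 3.49 on the log2 scale (11.2-fold in the authors' deposited table). The difference of Eucgr.C03431 was -4.84 (28.7-fold in the authors' deposited table), 114th from the lowest of 1511 genes that were lower. Its E. globulus value of 2.30 is low on a scale with a lowest value of 0, and the fold rests on it. Thus 2 of the 3 genes were lower, where 12.8% of all genes were lower and 7.11% higher. For Eucgr.C03449 the difference of -3.49 is the sum of -1.81 for CO2 within E. globulus and -1.68 between both controls (3.21-fold, not tested by the authors). The median difference between the controls was -0.57 over 2453 genes, with E. globulus below. The genome build and counting rule are not given, so whether reads of both species were assigned to these genes equally well is unknown. Eucgr.C03431 has no value in the E. globulus control, so its difference cannot be divided this way.

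No copy of the 3 was selected in the other E. grandis comparisons. Of all genes, 1.34% changed in either direction at 30 °C against 20 °C, 3.20% at 10 °C against 20 °C, 3.98% at 30 °C against 10 °C, 13.1% at 10 °C in elevated CO2 and 8.32% at 30 °C in elevated CO2. Absence from a table does not show that these genes were steady in E. grandis, since a gene that failed the test or the fold has no value. Whether the species differ in the response of Eucgr.C03452 to heat was not tested.

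The 14 genes described as A2 lie mostly together. In the order of the gene identifiers, 11 of them fall between Eucgr.C03424 and Eucgr.C03456, with gene ends within 348 kb on the sequence that the files name pchr3, a sequence of unstated genome build. That run holds 16 listed genes, of which the other 5 are 3 disease resistance genes of the TIR class and 2 without a description. Gene ends of Eucgr.C03449 and Eucgr.C03452 lie 22.5 kb apart, and Eucgr.C03431 lies 223 kb from Eucgr.C03449. Such near copies can share reads, and the authors' counting rule is not given, so the split of reads between copies is uncertain.

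Within the run, neighbours had different patterns. Eucgr.C03447 was at 2.06, 1.84 and 5.54 at 10, 20 and 30 °C in ambient CO2, 13.0-fold higher at 30 °C than at 20 °C in the authors' deposited table. That fold rests on a 20 °C value that is low on a scale with a lowest value of 0. Eucgr.C03441 was at 1.86, 4.07 and 3.31, and Eucgr.C03440 at 6.44, 7.77 and 7.19, so both were highest in the control. Eucgr.C03454 was at 6.14, 4.89 and 5.46, with its control lowest, and at 4.89 in elevated CO2 at 20 °C, against 7.75 in the E. grandis control.

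Eucgr.C03424 was the A2 gene with values in the most groups of E. grandis. It was at 8.81, 9.87 and 10.30 at 10, 20 and 30 °C in E. grandis and at 8.76, 10.23 and 10.62 in E. globulus. In both species it was lower at 10 °C than at 20 °C and differed by less than 2-fold between 30 and 20 °C. At 10 °C in elevated CO2 it was at 8.46 in E. grandis and 9.05 in E. globulus.

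The remaining A2 genes had values in fewer groups. Eucgr.C03056, outside the run, was at 8.28, 8.84 and 10.81 at 10, 20 and 30 °C and at 10.95 at 30 °C in elevated CO2. Eucgr.C00664, also outside it, was at 8.54 in the control and 10.31 at 30 °C in elevated CO2. Among its groups with a value, Eucgr.C03056 stood highest in the 30 °C groups. Eucgr.C00664 has only these 2 values, which come from the 1 comparison that selected it. Eucgr.C03435 rose from 4.16 to 5.22 in elevated CO2 at 20 °C, and Eucgr.L01331 from 4.17 to 5.55. Eucgr.C03434 was at 5.96, 6.41 and 7.34 at 10, 20 and 30 °C, at 5.21 in elevated CO2 at 20 °C and at 7.12 in the E. grandis control. Eucgr.C03456 was at 5.47 in E. globulus at 20 °C in elevated CO2 and at 6.90 in the E. grandis control.

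**Figure D2:**
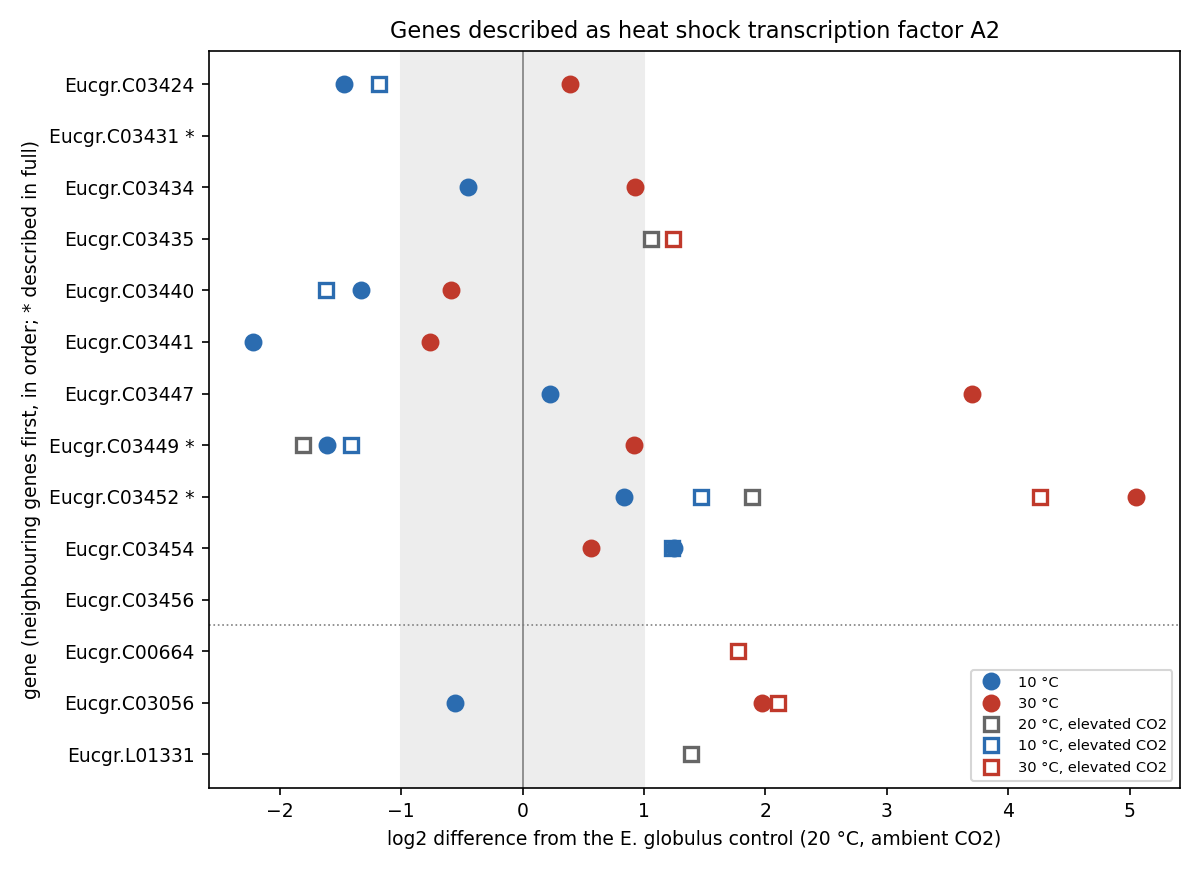
Log2 difference from the E. globulus control (x axis) of the A2 genes with a value there (y axis, neighbouring genes first in the order of their identifiers), 1 point per comparison with the control whose table lists the gene. The range under 2-fold is shaded, and Eucgr.C03431 and Eucgr.C03456 have no point because they have no control value. Eucgr.C03452 lies farthest to the right, at 5.05 and 4.26 for the 30 °C groups.

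Over all A2 genes in the temperature table, 9 of 14 were listed. At 30 °C against 20 °C, 3 of the 14 were higher and 0 lower, where 22.7% of all genes were higher, so the share is near that of all genes. The other 6 listed differed by less than 2-fold (median log2 difference over the 9 listed 0.92). At 10 °C 1 of the 14 was higher and 4 lower (median -0.56), where 17.1% of all genes were higher and 14.4% lower. Between 30 and 10 °C 7 were higher and 0 lower at 30 °C (median 1.85), where 23.9% of all genes were higher and 18.4% lower. In elevated CO2 at 20 °C, 4 were listed, of which 3 rose and 1 fell, where 3.31% of all genes rose and 1.72% fell. That lead of rises turned to 1 more lower than higher once the table median of 1.20 was subtracted. At 10 °C in elevated CO2, 2 of the 14 rose and 3 fell, where 15.8% of all genes rose and 12.7% fell. At 30 °C in elevated CO2, 4 of the 14 rose and 0 fell, where 29.9% of all genes rose and 16.2% fell. The share that rose is thus near that of all genes at both temperatures. The median at 30 °C in elevated CO2 was 1.94, against 1.34 over the table. All 5 A2 genes listed in E. globulus in elevated CO2 against the E. grandis control were lower, as were 1511 of 2352 listed genes. The median of the 5 was -2.86, against -1.46 over that table.

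Of the 12 heat shock factors of other classes, 8 were listed in the temperature table, with 3 higher and 1 lower at 30 °C against 20 °C, beside 22.7% and 14.8% of all genes. Eucgr.A01544, described as A3, was at 6.50, 5.63 and 8.03 at 10, 20 and 30 °C, and Eucgr.A02338, described as B3, at 9.56, 7.96 and 9.64. Both were thus above the control at either temperature. Eucgr.C01043, of class C1, was at 10.24, 10.85 and 9.48 and was the heat shock factor with the lowest difference at 30 °C. In the E. grandis table of 30 °C in elevated CO2, where no A2 gene stood, 4 other heat shock factors were listed and all 4 fell, with a median log2 difference of -1.34, where 3.43% of all genes fell. In the same comparison, 11 of 11 listed small heat shock proteins (median log2 difference 3.37) and 3 of 3 HSP70 genes (median 3.44) rose. So did 2 of 2 HSP101 and ClpB genes (median 1.87), and 7 of 7 DnaJ genes fell (median -2.59). Of all 984 genes listed there, 578 rose and 406 fell. The 4 heat shock factors that fell are described as B2A, A8 and, for Eucgr.H03412 and Eucgr.K03325, A6B. Eucgr.H03412 was at 10.36 in the E. grandis control and 8.48 in that group.

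Chaperones and other heat response genes, some of them known targets of HSFA2 in Arabidopsis, were counted in the same E. globulus tables, from lists of descriptions. For comparison with all list counts below, 2681 of all 7453 listed genes were higher and 1747 lower at 30 °C. At 10 °C, 2020 of these were higher and 1701 lower. At 30 °C in elevated CO2, 3534 of all 5445 listed genes rose and 1911 fell. Small heat shock proteins, which hold unfolding proteins in solution, were 49 in any table. At 30 °C against 20 °C, 34 of 43 listed were higher and 2 lower (median log2 difference 3.14), and at 30 °C in elevated CO2 all 40 listed rose (median 5.22). Eucgr.F02898, with the largest difference of this list in both comparisons, was at 4.63 in the control, 10.97 at 30 °C and 12.97 at 30 °C in elevated CO2. At 10 °C, 16 were higher and 1 lower.

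The larger chaperones had the same direction at 30 °C for HSP70 and HSP101. HSP70 genes, whose products refold proteins, were higher in 8 of 8 listed at 30 °C (median 1.69) and rose in 7 of 7 listed at 30 °C in elevated CO2 (median 3.98). Eucgr.F03980, described as HSP70B, was at 10.10, 13.51 and 14.83 in the control, at 30 °C and at 30 °C in elevated CO2. Eucgr.K02521, described as HSP101, a chaperone that dissolves protein aggregates, was at 9.64, 12.35 and 13.35 in the same groups. The HSP90 list was mixed, with 2 higher and 2 lower of 8 listed at 30 °C. Those higher were both described as HSP90.1, Eucgr.A02734 among them at 11.24 in the control and 15.97 at 30 °C, and those lower belonged to a wider family of HSP90-like ATPases. At 30 °C in elevated CO2, 3 genes described as HSP90.1 rose and 1 fell, Eucgr.H03726 from 8.34 to 7.28.

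DnaJ genes were mixed and multiprotein bridging factor 1 genes were not. DnaJ genes, which hand clients to HSP70, were higher in 10 and lower in 6 of 22 listed at 30 °C, and 13 rose and 10 fell at 30 °C in elevated CO2, a lead that turned to 5 more lower than higher after subtraction of the table median. The DnaJ gene Eucgr.G02581 fell from 12.12 to 6.39 at 30 °C in elevated CO2, while Eucgr.H00599 rose from 4.04 to 9.47. All 4 genes of multiprotein bridging factor 1, a transcriptional coactivator that accumulates in heat in Arabidopsis, were higher at 30 °C (median 2.29) and rose at 30 °C in elevated CO2 (median 3.38). Rotamase FKBP 1 (Eucgr.K02110), which in Arabidopsis binds HSP90 and modulates HSFA2, rose from 13.10 to 14.39 at 30 °C in elevated CO2. A second gene of that description, Eucgr.L02444, was at 2.33, 4.29 and 3.96 at 10, 20 and 30 °C in ambient CO2 and at 2.90 at 10 °C in elevated CO2, so it was lower at 10 °C and differed by less than 2-fold at 30 °C.

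Genes of heat protection beyond chaperones were also listed. Ascorbate peroxidase 2 (Eucgr.A01180), which removes hydrogen peroxide, was at 8.42 in the control, 11.85 at 30 °C and 14.14 at 30 °C in elevated CO2. It was the 1 gene of 2 listed ascorbate peroxidases that was higher at 30 °C. At 30 °C in elevated CO2 the other one listed, Eucgr.C01740, described as ascorbate peroxidase 6, fell from 8.34 to 7.19. Galactinol synthases, which start the synthesis of raffinose sugars, were higher in 15 of 17 listed at 30 °C (median 3.16) and rose in 14 of 15 at 30 °C in elevated CO2 (median 2.43), with 1 fall. Eucgr.L00235 was at 1.83 in the control and 6.12 at 30 °C. At 10 °C 1 galactinol synthase was higher and 4 were lower.

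**Figure D3:**
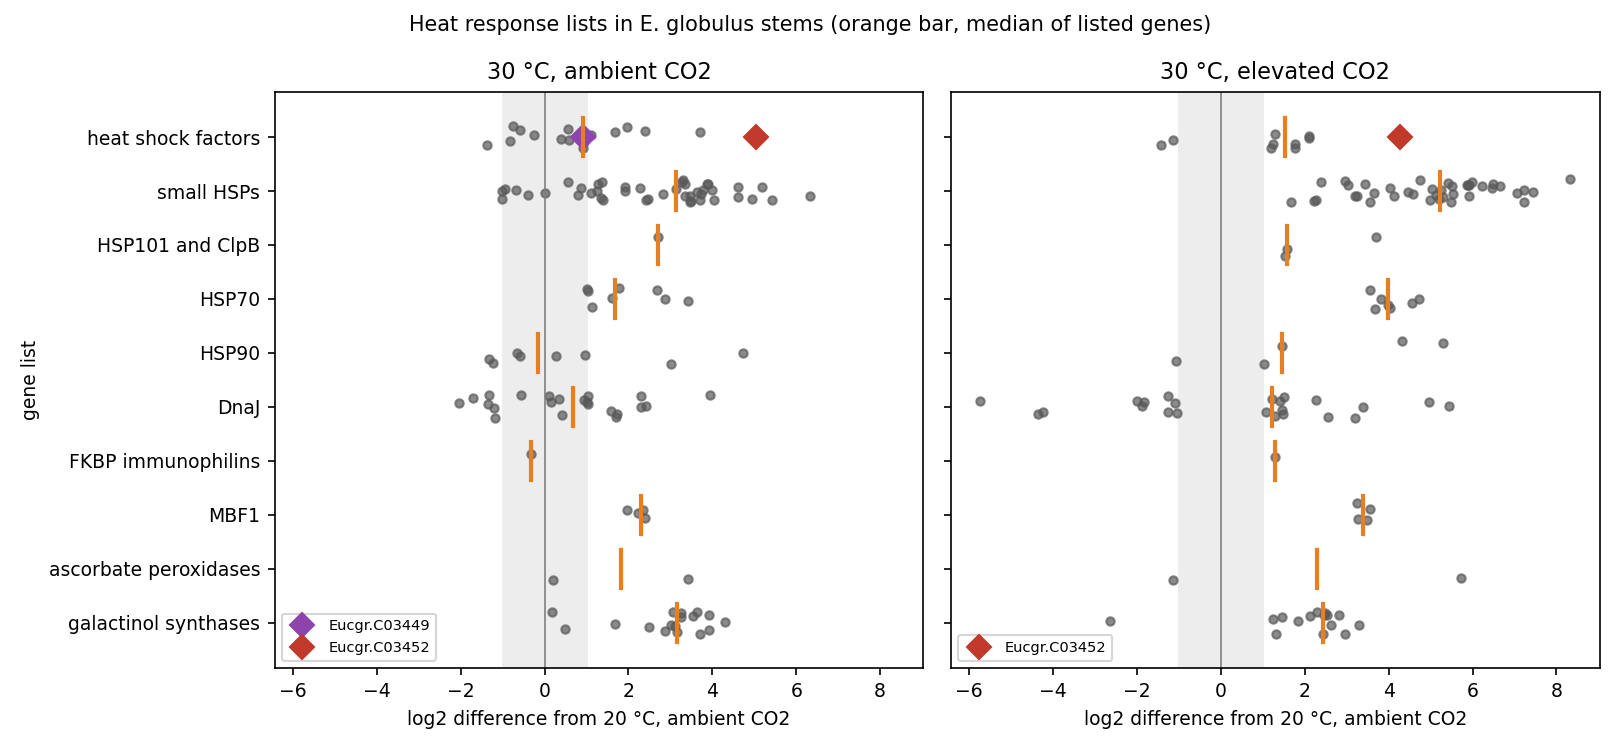
Log2 difference from the E. globulus control (x axis) at 30 °C in ambient CO2 (left) and in elevated CO2 (right) for the listed genes of each list (y axis), 1 point per gene, with the median as an orange bar and the range under 2-fold shaded. Eucgr.C03452 lies at 5.05 and 4.26, above the other heat shock factors, and small heat shock proteins have medians of 3.14 and 5.22.

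The 30 °C groups were also set side by side between CO2 concentrations, where counts of genes above or below the ambient value go by sign alone, with no minimum fold. Eucgr.C03452 had a log2 difference of -0.79, under 2-fold. All 35 small heat shock proteins with both values were above their ambient value, by 1.04 to 3.75 (median 1.91), as were 5 of 5 HSP70 genes (median 1.86) and 4 of 4 multiprotein bridging factor 1 genes (median 1.16). DnaJ genes were divided, with 8 above and 9 below of 17 (median -0.06), among them Eucgr.G02581 at -4.02. Of 13 galactinol synthases 12 were below (median -1.17), 7 of them by at least 2-fold. Of 7 heat shock factors 3 were above and 4 below (median -0.05), and those that differed at least 2-fold were 2, both below. Over all 3486 genes with both values 1897 were above. These differences join separate tables and have no test, and the genes with both values had passed the authors' selection in both.

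**Figure D4:**
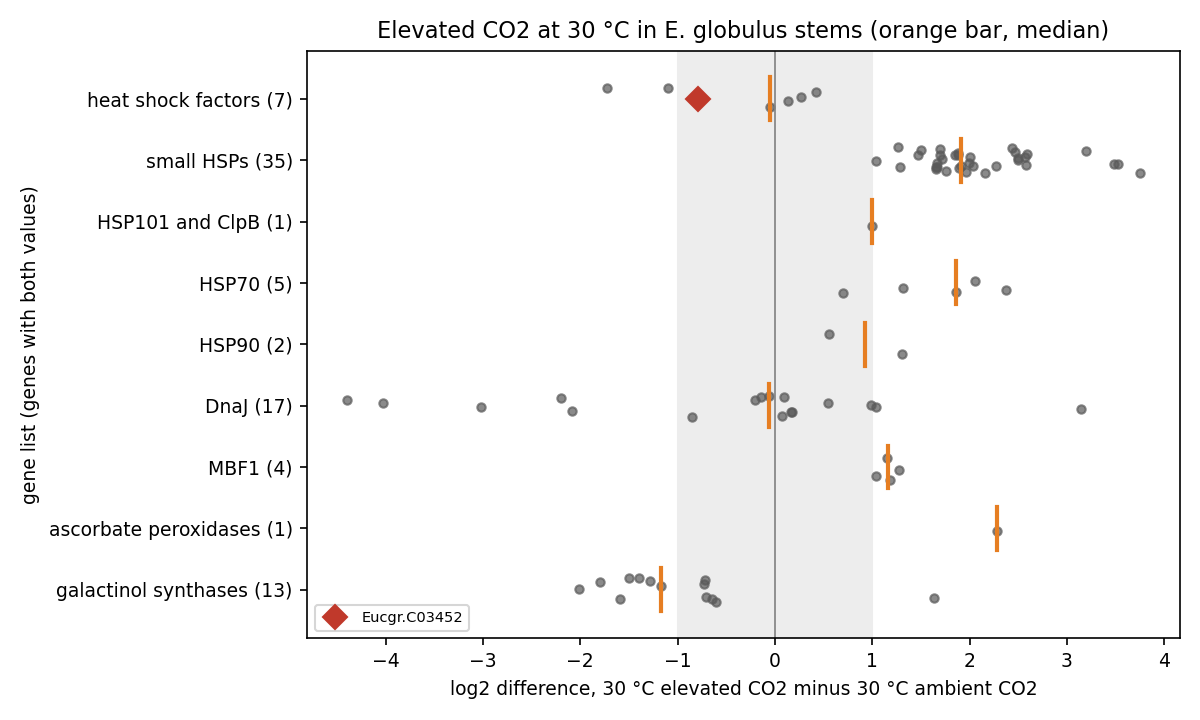
Log2 difference between E. globulus stems at 30 °C in elevated and in ambient CO2 (x axis) for genes with both values, by list (y axis), 1 point per gene with the median as an orange bar and the range under 2-fold shaded. The points of small heat shock proteins lie between 1.04 and 3.75, and Eucgr.C03452 lies at -0.79.

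Genes with the pattern nearest to each copy were found by the root mean square difference of log2 differences from the control, a description in which all genes share the same samples. For Eucgr.C03452, 307 other genes had values in all 6 groups of E. globulus, none of them a heat shock factor, with a median root mean square difference of 2.83. The nearest were Eucgr.H00510, described as an ATPase (0.64), Eucgr.D01925, described as C-repeat/DRE binding factor 2 (0.66), Eucgr.A02826, described as C-repeat-binding factor 4 (0.70), Eucgr.G02366, without a description (0.74), and Eucgr.F03414, described as a GRAS transcription factor (0.87). Of these, C-repeat/DRE binding factor 2 is known from Arabidopsis as a regulator of the cold response. Eucgr.A02826 was at 3.56, 3.85 and 8.36 at 10, 20 and 30 °C in ambient CO2 and at 4.97, 6.58 and 8.38 in elevated CO2.

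For Eucgr.C03449, 539 other genes had values in its 5 groups of E. globulus, with a median root mean square difference of 2.43. The nearest were Eucgr.G02698, of the major facilitator superfamily of transporters (0.20), Eucgr.L01583 and Eucgr.I00688, both without a description (both 0.31), Eucgr.L01306, with a plastocyanin-like domain (0.39), and Eucgr.C03896, described as beta-galactosidase 12. Eucgr.C03452 itself was at 3.36 from Eucgr.C03449 over these groups, farther than the median gene. Eucgr.C03431 has too few groups for such a ranking.

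**Figure D5:**
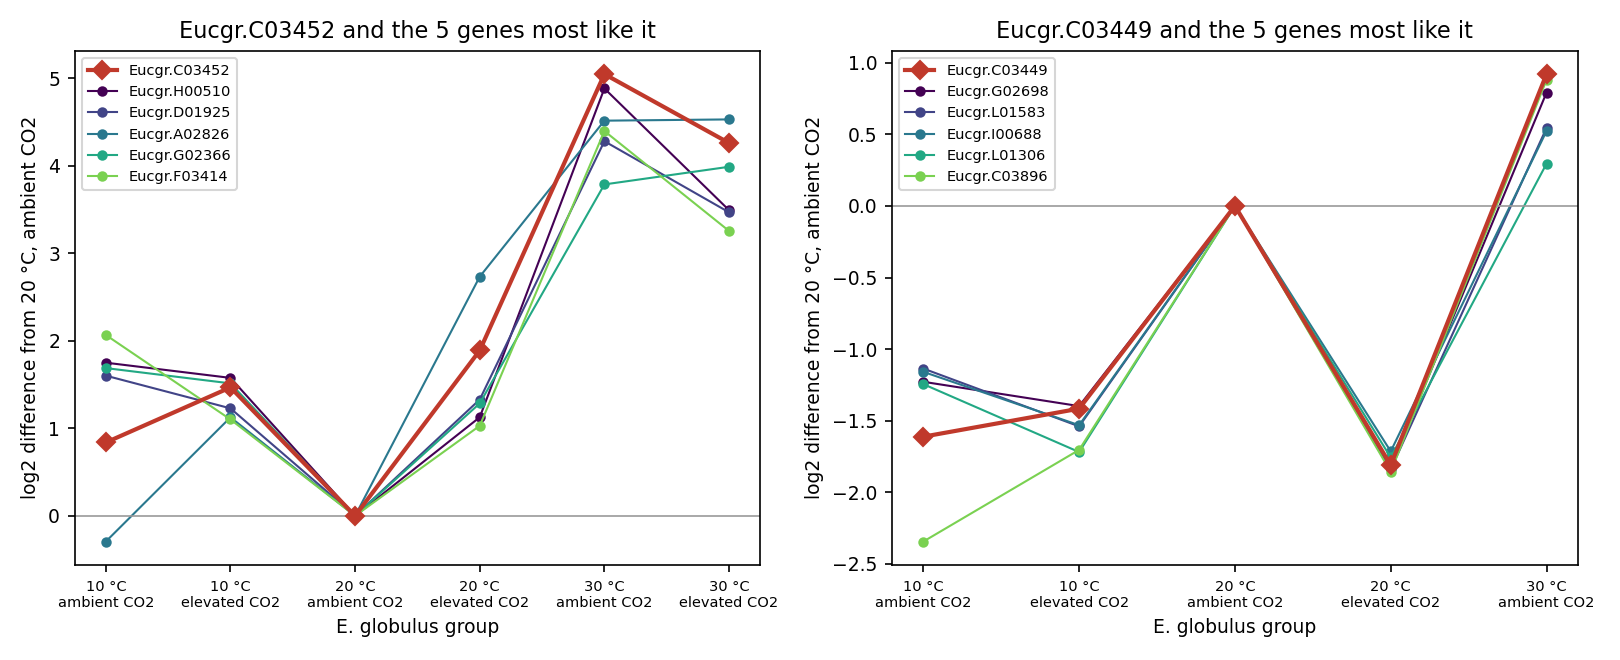
Log2 difference from the E. globulus control (y axis) over the groups of E. globulus (x axis) for Eucgr.C03452 and Eucgr.C03449 (thick lines) and the 5 genes nearest to each (thin lines), with lines joining groups only to guide the eye. The genes near Eucgr.C03452 are highest in the 30 °C groups, and those near Eucgr.C03449 are below 0 in every treated group but 30 °C.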

How the data were processed

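Per the labels' protocols, stem RNA was extracted with CTAB and sequenced from Illumina libraries. The tools listed in the submitters' processing notes are Bowtie2 and DESeq, with neither a version nor a role. Genome build, annotation and counting rule: not given in the sources used here. Samples were grouped by their titles.

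The group values were normalised by the authors and deposited on a log2 scale, per the file headers. The deposited tables also give for each pair of groups an unsigned fold (a ratio). A check found that each deposited log2 fold change is the difference between its group values, and that 8144 of 8144 values of genes shared between tables were equal (tolerance 0.0001).

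Tables were joined by gene identifier with Python 3.11.15 and pandas 2.3.3. The planned count model could not be used, since the tables hold no value per sample; depth is unknown. The members, lists and rules were chosen with earlier results of these data known. Lists were patterns on the files' descriptions: heat shock factors, small heat shock proteins, HSP101 and ClpB, HSP70, HSP90, DnaJ, FKBP immunophilins, multiprotein bridging factor 1, ascorbate peroxidases and galactinol synthases, while heat shock factor binding protein and DREB2 matched no gene. Genes were named by a rule: the 3 copies, other heat shock factors, the highest and lowest changed gene of each list at 30 °C in either CO2, and the 5 nearest genes of each copy. The text gives a selection of these.

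Alternatives were a 4-fold minimum, subtraction of each table's median, leaving out list genes with a group at 0, and Pearson correlation as the likeness. The likeness step by root mean square difference was tested on simulated data, and the counting and Pearson steps were not.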

Additional observations from a re-analysis of the deposited data

How the results depend on the processing

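At a 4-fold minimum, the count of changed copies went from 1 to 0 at 10 °C, from 2 to 0 in elevated CO2 at 20 °C and from 2 to 0 at 10 °C in elevated CO2. The other comparisons kept their counts, and the list genes called at 30 °C went from 92 to 58. Subtracting the table median left 1 of 2 copies changed in elevated CO2 at 20 °C and 1 of 2 at 10 °C in elevated CO2: Eucgr.C03452 then stood at 0.69 and 0.35. Higher minus lower genes turned from 2 to -1 for all A2 genes in elevated CO2 at 20 °C, and at 30 °C in elevated CO2 from 6 to -1 for heat shock factors and from 3 to -5 for DnaJ. These tables hold selected genes only, so their medians are no zero point. With Pearson correlation, 4 of the 10 nearest genes were shared. These were 1 of 5 for Eucgr.C03452, namely Eucgr.D01925, and 3 of 5 for Eucgr.C03449. No paired analysis was possible because the tables hold no value per sample. A replicate block and leaving out each sample were not run for the same reason. No error or depth can be given, so the precision of every value is unknown.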

Other observations

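At 10 °C, genes of the heat lists selected at both CO2 concentrations in E. globulus were also set side by side, counted by sign with no minimum fold. The 8 heat shock factors with both values differed by a median of -0.02 on the log2 scale and none by 2-fold, and 7 small heat shock proteins by a median of -0.09. All 6 galactinol synthases with both values were below their ambient value (median -0.87), 2 of them by at least 2-fold. These differences join separate tables and were not tested.

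Between both controls at 20 °C in ambient CO2, 11 of 13 small heat shock proteins with both values were below the E. grandis value in E. globulus, with a median log2 difference of -2.28, and so were 3 of 3 HSP70 genes (median -2.33). The median over all 2453 genes with both values was -0.57. These genes stand in tables of selected genes, and the difference between the species has no test. Whether reads of both species were assigned to these genes equally well is unknown.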
